A study of Mus musculus with 18 samples.

Results

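Heat shock proteins and DnaJ chaperones were followed in RNA sequencing of mouse liver. Members were the rows of the table of RPKM values (read numbers corrected for library size and transcript length) whose symbol began with Hspa, Hspb, Hspd, Hspe, Hsph, Hsp90, Dnaja, Dnajb or Dnajc followed directly by a digit, leaving out Hspa5. The pattern found 67 of 19057 rows. It did not take the symbols Hsp90aa1, Hsp90ab1 and Hsp90b1, in which letters follow the number, so that cytosolic HSP90 is given below as a separate list. The 67 members were 10 of the HSP70 class, 3 of the HSP110 class, 7 small heat shock proteins, the mitochondrial chaperonin pair Hspd1 and Hspe1, 4 DnaJA, 13 DnaJB and 28 DnaJC symbols, of which Dnajc19-ps is a pseudogene.

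All 18 mice were ICR mice aged 10 weeks, with 3 mice in each of 6 groups. Con mice received saline. STZ mice received streptozotocin, a toxin of the pancreatic beta cell used to model diabetes. A10-FMT and Con-FMT mice received STZ and then, by mouth, pooled small intestinal microbiota of donors given alginate oligosaccharide (AOS, 10 mg/kg) or of control donors. AOS mice received 10 mg/kg AOS without STZ, and STZ+AOS mice received both; these groups are described by the labels alone. The donor microbiota of a kind was pooled before it was given. The comparisons ask how the chaperones of the diabetic liver differ from those of control liver, and whether microbiota or AOS shift them.

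Chaperones hold unfolded proteins until they fold. HSP70 proteins bind and release short stretches of a client in a cycle driven by ATP, J proteins (the DnaJ families) bring clients to HSP70 and start ATP hydrolysis, and HSP110 proteins exchange the nucleotide. Small heat shock proteins keep clients from clumping, and the HSP60 and HSP10 chaperonin encloses a protein inside the mitochondrion. When unfolded proteins build up or the temperature rises, heat shock factor 1 (HSF1) binds heat shock elements, inverted repeats of the bases nGAAn, and switches on a small subset of these genes, while the others are expressed constantly.

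Ahead of the start site, paired heat shock units were more frequent in that inducible subset than over all genes, but did not set it apart. A pair of facing heat shock units, GAANNTTC or TTCNNGAA, each of which reads the same on both strands, was searched in the 250 bases before each RefSeq start (GRCm38.p6). Of 27025 genes with such a sequence, 14.5% held a pair. Of the 55 members with a sequence, 13 did (23.6%), and of the 11 stress-inducible members with one, 8 did (72.7%). Hspa8 and Hspa9 were among the members without a sequence. A pair extended by a further facing unit after another pair of bases, so that it holds 3 units, was found for 0.514% of all genes and for 3 members (5.45%), Hspd1, Hspe1 and Dnajb6. The letters were in the window for Dnaja4, Dnajb6, Dnajc10, Dnajc27 and Hspb6 outside the inducible list, and were not in it for Dnajb1, Hspb8 and Hspa4l inside that list. A match describes the letters only, and binding was not measured. The lines below show the windows around the matches for the members on which the results turn, 5′ to 3′ on the strand of the gene, with matched units in capitals.
Hspa1b (chr17:34959311-34959366, minus strand): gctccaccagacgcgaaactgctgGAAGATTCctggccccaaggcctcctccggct
Hspa1a (chr17:34972229-34972284, minus strand): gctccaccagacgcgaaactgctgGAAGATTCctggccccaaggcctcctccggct
Hsph1 (chr5:149636338-149636393, minus strand): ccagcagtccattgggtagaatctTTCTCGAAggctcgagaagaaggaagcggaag
Hspb1 (chr5:135887778-135887853, plus strand): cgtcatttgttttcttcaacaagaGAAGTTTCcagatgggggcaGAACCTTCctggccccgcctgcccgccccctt
Dnaja1 (chr4:40722320-40722375, plus strand): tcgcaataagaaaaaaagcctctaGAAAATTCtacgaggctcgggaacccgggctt
Hspd1 (chr1:55088035-55088100, minus strand): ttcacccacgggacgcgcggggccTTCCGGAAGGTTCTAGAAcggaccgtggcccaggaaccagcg
Hspe1 (chr1:55088035-55088100, plus strand): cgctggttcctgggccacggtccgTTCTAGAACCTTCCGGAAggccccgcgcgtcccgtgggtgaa
Dnajb6 (chr5:29735828-29735888, plus strand): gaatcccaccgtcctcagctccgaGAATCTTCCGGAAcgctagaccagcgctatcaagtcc
Dnaja4 (chr9:54699445-54699538, plus strand): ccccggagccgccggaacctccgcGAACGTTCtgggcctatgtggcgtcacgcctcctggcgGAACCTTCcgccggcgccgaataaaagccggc

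Hspd1 and Hspe1 stand head to head and shared 1 stretch with a match, read from opposite strands. Hspa1a and Hspa1b, intronless neighbours that encode nearly the same inducible HSP70, had 247 identical bases among the 250 before their starts (98.8%). Their transcripts also overlapped in sequence: 62.6% of the stretches of 35 bases of Hspa1a were present in Hspa1b, and 66.3% of those of Hspa1b in Hspa1a. Reads could be shared between them, and their separate levels are uncertain. Across the 18 libraries the ratio of Hspa1b to Hspa1a was 2.03 at the lowest, 2.65 at the median and 7 at the highest. The other members with over 20% of their stretches found in other genes were Hspa8, Hspb1, Hspd1, Hspe1, Dnajc17 and Dnajc19-ps, 8 members in all with the HSP70 pair.

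A few members were expressed in liver far above the other members. Per transcript length, Hspa8, the constitutive cytosolic HSP70, had the highest mean over the 18 libraries at 608 RPKM, followed by the mitochondrial HSP70 Hspa9 (mortalin) at 211, the chaperonins Hspe1 at 199 and Hspd1 at 190, and the small heat shock protein Hspb8 at 122 RPKM. These 5 held between 50.3% and 64.4% of the summed member RPKM of a library, and Hspa8 alone between 18.1% and 32.7%. Another 29 members averaged 10 to 100 RPKM, 19 averaged 1 to 10 RPKM and 14 stayed under 1 RPKM. Dnajc5g was listed at 0 in every library. Outside the members, Hsp90ab1 averaged 380 RPKM and Hsp90b1 279 RPKM, both above Hspa9, and Hsp90aa1 averaged 104 RPKM. The summed member RPKM ran from 1589 in Con mouse 1 to 3078 in STZ mouse 3, which was 0.197% to 0.450% of all RPKM in a library.

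The 53 members that reached 1 RPKM in at least 3 libraries were tested, among the 10602 genes of a model of 12 libraries (Con, STZ and both transplant groups) and the 10822 genes of a model of all 18. Not tested were Dnajb3, Dnajb7, Dnajb8, Dnajb13, Dnajc5g, Dnajc6, Dnajc19-ps, Dnajc27, Hspa1l, Hspa12a, Hspa12b, Hspb2, Hspb7 and Hspb9, many of which are known from testis, muscle or brain. Between the highest and the lowest library, 28 of the 53 differed by a factor under 2 and 6 by a factor over 5. The smallest such factor was that of Dnajc22, a membrane J protein, at 49.8 to 61.5 RPKM. The most variable were Hspa1a, at 0.38 to 33.5 RPKM, and Hspa1b, at 1.28 to 85.2 RPKM.

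**Figure D1:**
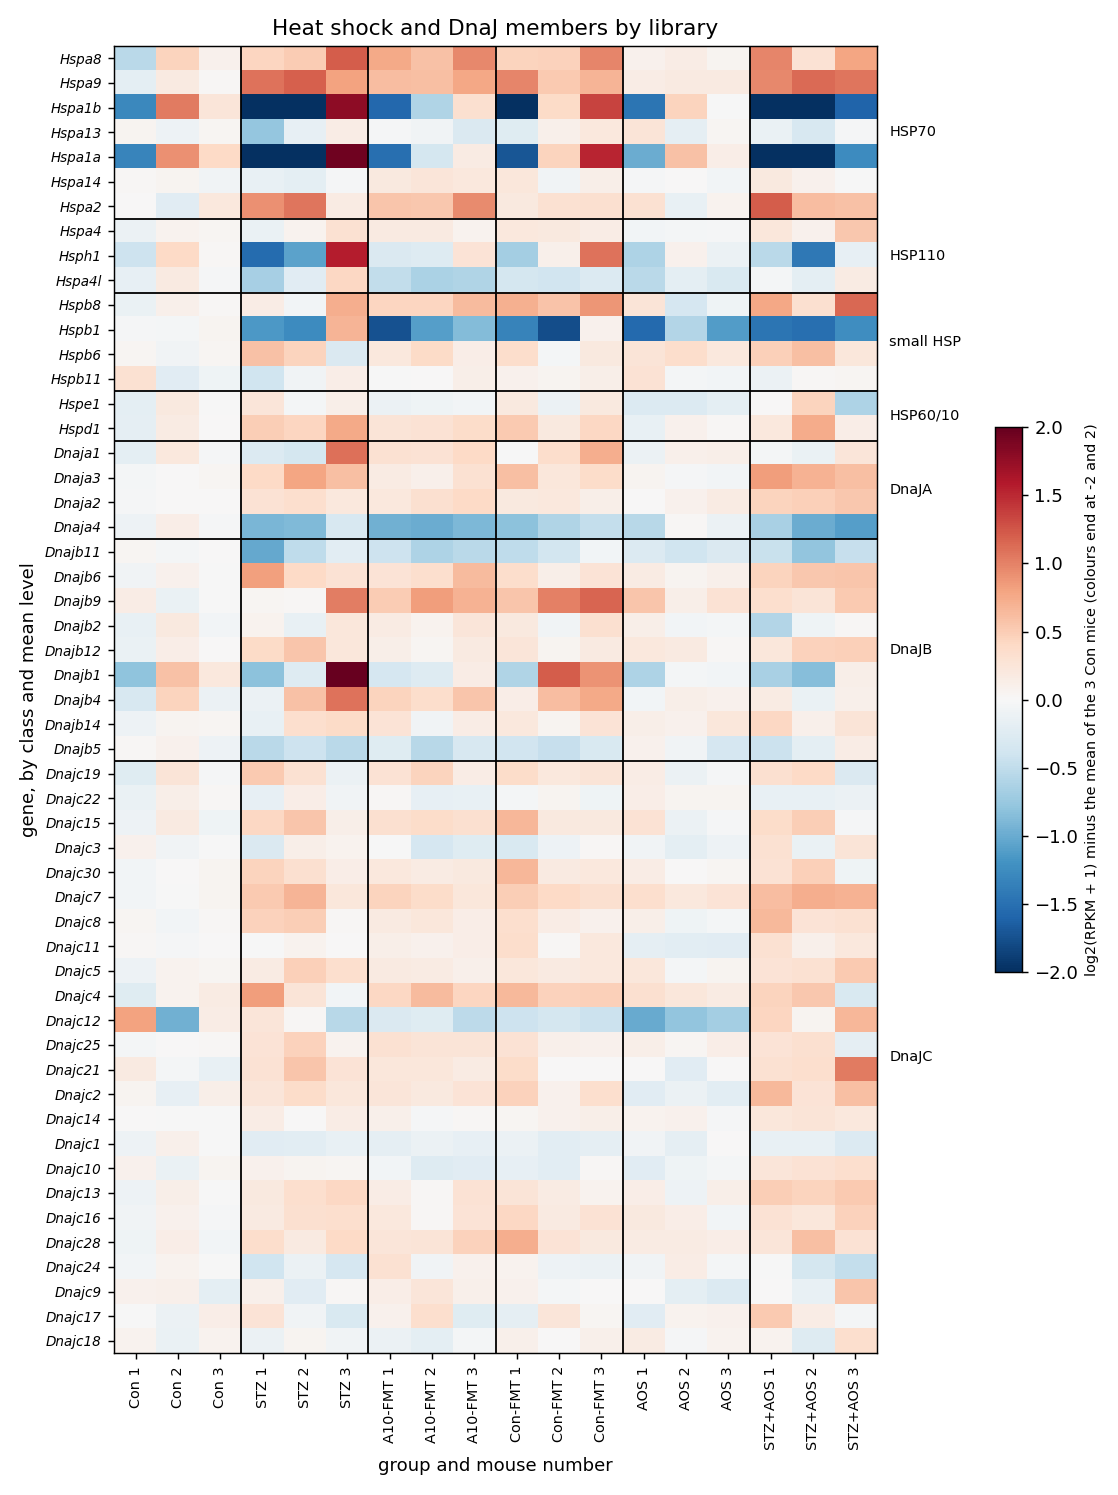
Each row is 1 of the 53 tested members, grouped by class and ordered by mean level, and each column is 1 of the 18 liver libraries; colour is log2(RPKM + 1) minus the mean of the 3 Con mice, with colours ending at -2 and 2. Hspa9 and Dnaja3 are red and Dnaja4 is blue in all 3 STZ mice, whereas Hspa1a, Hspa1b, Hsph1 and Dnajb1 are on opposite sides of 0 in STZ mouse 3 and STZ mouse 1.

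The libraries carried liver transcripts, with 5 hepatocyte markers summing to between 35849 and 68080 RPKM. Of the 5, 3 were called lower and 1 higher in STZ against Con, where their sum was 41085 to 49085 RPKM in STZ and 47900 to 68080 RPKM in Con. Of the markers of other cells, 2 of 5 endothelial, 1 of 6 Kupffer cell and macrophage and 1 of 5 stellate markers were called higher in the same comparison, with median log2 changes of 0.50, 0.56 and 0.12. The 1 tested skeletal muscle marker was called higher too, by 0.65. Called lower were 1 of 3 erythroid, 1 of 2 tested cholangiocyte and the 1 tested pancreas marker, with medians of -0.42, -0.35 and -2.55. Whether these cell types had a part in the chaperone levels was not tested. STZ+AOS mouse 3 held pancreatic transcripts, with Ctrb1 at 36.5 and Prss2 at 7.74 RPKM against at most 0.61 RPKM of either elsewhere. Pnlip at 7.23 and Cpa1 at 3.31 RPKM were also highest there. Cela1, on the same list of pancreas markers, went the other way, at 4.39 RPKM there and 30.55 to 48.8 RPKM in the Con and AOS mice. The RPKM of a library summed to 749557 to 806937 in Con and to 631126 to 684659 in STZ, and the median log2 change of all tested genes was 0.21 in STZ against Con and 0.21 in STZ+AOS against AOS. Changes of members are therefore also given after median-ratio scaling, which takes out that common shift. For genes that are no members only the unscaled changes are given. In bulk liver, fewer cells of a type and less RNA per cell cannot be told apart.

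With STZ, Hspa9 and Dnaja3 of the mitochondrial matrix were higher, and the J proteins Dnaja4, Dnajb5 and Dnajb11 were lower. In STZ against Con, 15 of the 53 tested members were called (28.3%) at an adjusted p under 0.05 by limma, 12 higher and 3 lower. Over all tested genes 38.5% were called in either direction, 33% higher and 5.52% lower, so the share of members called was below that of all genes. Their median log2 change was 0.19 against 0.21 for all genes. After median-ratio scaling 10 members were called, 2 higher and 8 lower, beside 27.3% of all genes (14% higher, 13.3% lower). The higher 2 were Hspa9 and Dnaja3. All 3 STZ mice lay above all 3 Con mice for 16 members and below them for 5, beside 47.7% of all genes in either direction (40.8% above, 6.98% below). The count of 15 was 8 without Con mouse 1 or STZ mouse 2, 9 without Con mouse 3 and 26 without STZ mouse 3.

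Hspa9 is the HSP70 of the mitochondrial matrix, which pulls proteins in through the inner membrane and folds them. Its level was 115, 150 and 134 RPKM in Con and 283, 304 and 231 RPKM in STZ mice 1 to 3. It was 146, 150 and 150 RPKM in AOS and 259, 292 and 278 RPKM in STZ+AOS. Every mouse given STZ without a transplant was above every Con and AOS mouse. In STZ against Con Hspa9 rose by 1.03 ± 0.15 on the log2(RPKM + 1) scale (SE, n = 3 mice each; limma adjusted p = 0.00095), and the mean was 2.05 times that of Con. In STZ+AOS against AOS it rose by 0.89 ± 0.13 (limma adjusted p = 0.00039). With median-ratio scaling the changes of Hspa9 were 0.77 and 0.64, both called.

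Dnaja3 (Tid1) is the J protein that works with Hspa9 in the matrix. It stood at 35.5, 36.8 and 37.5 RPKM in Con and at 48.7, 63.8 and 55.96 RPKM in STZ. In AOS it was 38.0, 36.1 and 35.3 RPKM, and in STZ+AOS 65.8, 59.7 and 56.1 RPKM. The groups did not overlap in either comparison. The log2 change of Dnaja3 was 0.60 ± 0.12 in STZ against Con (limma adjusted p = 0.00397) and 0.71 ± 0.11 in STZ+AOS against AOS, and 0.33 and 0.47 with median-ratio scaling, called each time.

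Hspd1 (HSP60), the folding chamber of the matrix, was 137, 175 and 156 RPKM in Con and 220, 209 and 264 RPKM in STZ. It rose by 0.56 ± 0.13 on the log2 scale (limma adjusted p = 0.00823). The call ended with each of the scalings tried: the change was 0.29 with median-ratio scaling (adjusted p = 0.0951). In STZ+AOS against AOS Hspd1 had a log2 change of 0.38 ± 0.16 that missed the threshold (limma adjusted p = 0.067). Its partner Hspe1 (HSP10), read from the other side of the promoter shown above, was 176, 230 and 201 RPKM in Con and 238, 196 and 219 RPKM in STZ. The Hspe1 groups overlapped, with a log2 change of 0.11 ± 0.13 (limma adjusted p = 0.541).

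**Figure D2:**
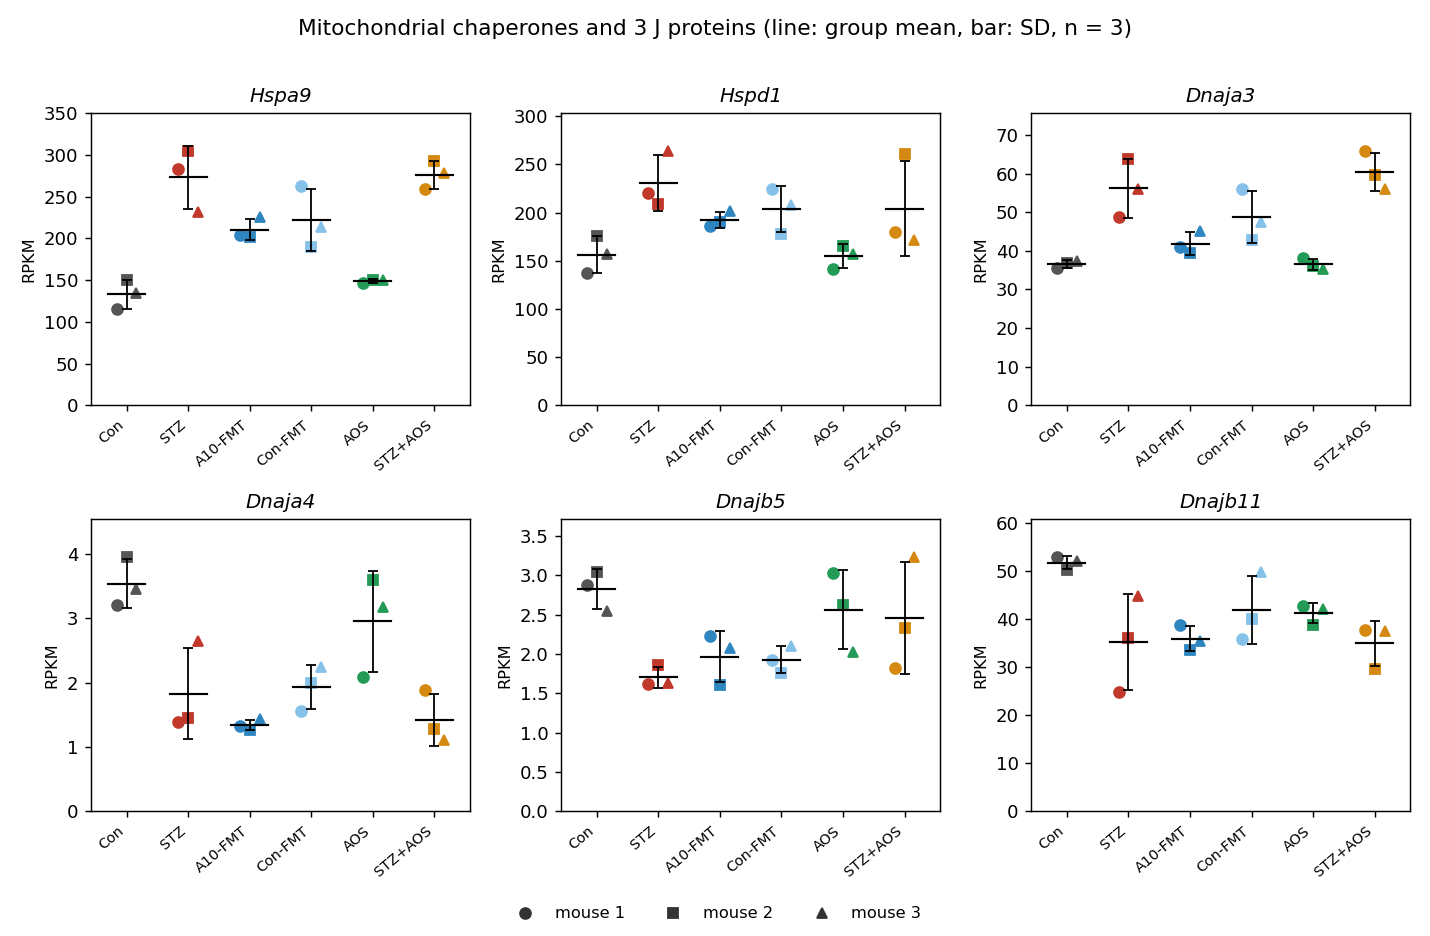
RPKM of Hspa9, Hspd1, Dnaja3, Dnaja4, Dnajb5 and Dnajb11 in each of the 18 mice, by group (x axis) with the group mean as a line and the SD over 3 mice as a bar; every y axis starts at 0. Hspa9 lies at 231 to 304 RPKM in STZ and at 115 to 150 RPKM in Con, with A10-FMT and Con-FMT between 190 and 262 RPKM, and Dnaja4 lies below its Con values in all STZ and transplant mice.

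Of the 10 members on the list of mitochondrial chaperones, 3 were called higher in STZ against Con (Hspa9, Dnaja3 and Hspd1) and 3 in STZ+AOS against AOS (Hspa9, Dnaja3 and Dnajc11), and none was called lower. With 33% and 31.8% of all genes called higher in the same comparisons, 3 of 10 is close to the background. Dnajc11, a J protein of the inner membrane organizing system, was 17.1, 16.6 and 16.9 RPKM in Con and 16.7, 17.83 and 17.0 RPKM in STZ. It was 14.7, 14.4 and 14.3 RPKM in AOS and 21.0, 18.2 and 19.6 RPKM in STZ+AOS, where it rose by 0.41 ± 0.09 on the log2 scale (limma adjusted p = 0.00231). That call was lost with median-ratio scaling. Dnajc19 and Dnajc15, J proteins of the import motor, were not called in either comparison, with log2 changes of 0.24 and 0.36 in STZ against Con. Grpel1 and Grpel2, the nucleotide exchange factors of Hspa9 and no members, were both called higher in STZ against Con, by 0.56 and 0.99 on the log2 scale. Trap1, the mitochondrial HSP90, rose by 0.52 in STZ against Con and had a change of 0.17 in STZ+AOS against AOS that was not called. The changes and calls of Grpel1, Grpel2 and Trap1 are unscaled.

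The J protein that fell furthest was Dnaja4, a cytosolic relative of Dnaja1. It was 3.20, 3.95 and 3.45 RPKM in Con and 1.39, 1.45 and 2.64 RPKM in STZ. In AOS it was 2.08, 3.60 and 3.18 RPKM and in STZ+AOS 1.88, 1.28 and 1.11 RPKM. No STZ mouse reached a Con mouse and no STZ+AOS mouse reached an AOS mouse. The log2(RPKM + 1) change of Dnaja4 was -0.71 ± 0.16 (limma adjusted p = 0.00569) and -0.70 ± 0.18 (limma adjusted p = 0.00684), and -0.90 and -0.86 with median-ratio scaling. At this low level the added 1 makes the fold smaller than the ratio of means, 1.93 and 2.07 times higher in the groups without STZ.

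Dnajb5, a cytosolic relative of Dnajb1, was 2.88, 3.04 and 2.54 RPKM in Con and 1.62, 1.86 and 1.63 RPKM in STZ. It fell by 0.50 ± 0.10 on the log2 scale without overlap (limma adjusted p = 0.0042). In STZ+AOS it was 1.82, 2.33 and 3.23 RPKM against 3.03, 2.62 and 2.03 RPKM in AOS, which overlapped, with a log2 change of -0.05 ± 0.14. Dnajb11 (ERdj3), a cochaperone inside the endoplasmic reticulum, was 52.9, 50.3 and 52.1 RPKM in Con and 24.8, 36.0 and 44.8 RPKM in STZ. Its fall of 0.58 ± 0.18 (limma adjusted p = 0.0272) lost its call in 5 of the 6 fits that left out a mouse, where the change ran from -0.36 to -0.77. In STZ+AOS against AOS the change of Dnajb11 was -0.24 ± 0.17 and was not called.

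Cytosolic and membrane J proteins made up most of the remaining higher calls. Dnajc7 (Tpr2), which links HSP70 and HSP90, was 17.9, 18.5 and 19.2 RPKM in Con and 27.1, 30.4 and 21.9 RPKM in STZ, and rose by 0.48 ± 0.11 on the log2 scale (limma adjusted p = 0.00827). Dnajb12, a J protein of the endoplasmic reticulum membrane, rose by 0.39 ± 0.11 and Dnajc5, the cysteine string protein of secretory vesicles, by 0.32 ± 0.09, both called. With median-ratio scaling none of these 3 was called, at 0.22, 0.13 and 0.07. Hspa2, an HSP70 best known from testis, was 0.67, 0.42 and 0.93 RPKM in Con and 2.14, 2.50 and 0.86 RPKM in STZ. The call of Hspa2 (log2 change 0.72 ± 0.21, limma adjusted p = 0.0225) was made although STZ mouse 3 lay within the Con range. Also called higher were Dnaja2, Dnajb6, Dnajc13, Dnajc16 and Dnajc21, with log2 changes between 0.28 and 0.50; Dnajb6, Dnajc13 and Dnajc21 are named because they complete the count and were chosen after their values were seen.

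The comparison of STZ+AOS with AOS uses 6 other mice and shares no library with STZ against Con. There 18 of the 53 members were called (34.0%), 17 higher and 1 lower, beside 37.9% of all genes, 31.8% higher and 6.11% lower. With median-ratio scaling 9 members were called, 4 higher and 5 lower, beside 24.5% of all genes (12.2% higher, 12.3% lower). All 3 STZ+AOS mice lay above all 3 AOS mice for 23 members and below them for 5, beside 49.1% of all genes in either direction (40.5% above, 8.61% below). In the unscaled fits 10 members were called in both comparisons, 66.7% of the 15 and 55.6% of the 18, against 68.2% and 69.3% for all genes. They were Hspa9, Dnaja3, Dnaja2, Hspa2, Dnajb6, Dnajc5, Dnajc7, Dnajc13 and Dnajc21, higher in both, and Dnaja4, lower in both. The sign was shared by 42 of the 53 members (79.2%) and by 83.8% of all genes.

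**Figure D3:**
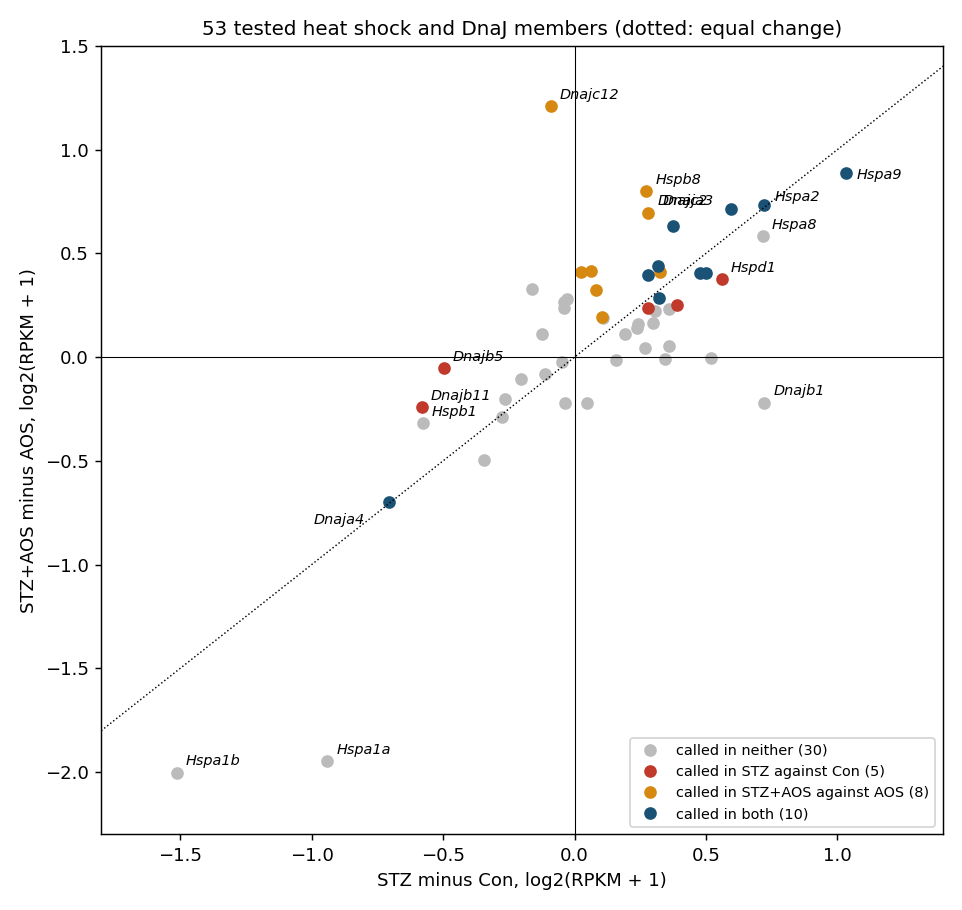
Each point is 1 of the 53 tested members, with its log2(RPKM + 1) change in STZ against Con on the x axis and in STZ+AOS against AOS on the y axis, coloured by where it was called; the dotted line marks equal changes. Hspa9, Dnaja3, Hspa2 and Dnaja4 lie near the dotted line, Dnajc12 is at -0.09 on the x axis and 1.21 on the y axis, and Hspa1a and Hspa1b have the lowest changes on both axes without a call.

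Some members were called with AOS present and not without it. Dnajc12, a J protein that binds the aromatic amino acid hydroxylases, was 6.40, 7.65 and 8.27 RPKM in AOS and 19.1, 14.5 and 22.6 RPKM in STZ+AOS. It rose by 1.21 ± 0.31 on the log2 scale (limma adjusted p = 0.00834), a ratio of means of 2.52. In Con Dnajc12 was 25.0, 6.68 and 15.5 RPKM, so that the Con mice spanned the STZ values of 16.7, 14.2 and 9.16 RPKM. Dnajc2 (Mpp11), the J protein of the ribosome, was 7.54, 8.19 and 7.69 RPKM in AOS and 14.8, 11.2 and 14.2 RPKM in STZ+AOS, a log2 change of 0.70 ± 0.11 (limma adjusted p = 0.000611), and in STZ against Con the change of Dnajc2 was 0.28 ± 0.11 and was not called. Dnajc10 (ERdj5), a disulfide reductase of the endoplasmic reticulum, rose by 0.41 ± 0.09 with AOS and had a change of 0.06 ± 0.09 without. Hspb8, which works with Bag3 in chaperone-assisted autophagy, was 109, 71.9 and 84.99 RPKM in AOS and 156, 114 and 202 RPKM in STZ+AOS, without overlap and higher by 0.80 ± 0.21 (limma adjusted p = 0.00952). With median-ratio scaling only Hspa9, Dnaja3, Dnajc2 and Dnajc12 were called higher, and the calls of Dnajc10 and Hspb8 were lost.

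The test of the difference between both STZ effects called none of the 53 members and none of all genes (0%). At an unadjusted p under 0.05 it held 5 members, beside 5.4% of all genes: Dnajc11, Dnajc12, Dnajc10, Dnajc2 and Dnajb5, each with a limma adjusted p of 0.856. An STZ effect that depends on AOS was therefore not shown for any member. The count of 18 in STZ+AOS against AOS was 11 without AOS mouse 2 and 13 to 20 with any other mouse left out. Without STZ+AOS mouse 3, the library with pancreatic transcripts, Hspa9, Dnaja3, Dnajc2, Dnajc12, Hspb8 and Dnaja4 were still called, with log2 changes of 0.88, 0.77, 0.65, 1.07, 0.60 and -0.61.

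Among the stress-inducible members STZ mouse 3 had the highest levels. The list of HSF1-inducible genes held Hspa1a, Hspa1b, Hspa8, Hspa4l, Hsph1, Hspb1, Hspb8, Hspd1, Hspe1, Dnaja1, Dnajb1 and Dnajb4. Of these 12 members, 11 were higher in STZ mouse 3 than in the other STZ mice, and for 10 of the 12 that library was the highest of all 18. Hspa1b was 1.28, 2.35 and 85.2 RPKM in STZ mice 1 to 3, against 9.19, 50.2 and 28.4 RPKM in Con. Hspa1a was 0.38, 1.16 and 33.5 RPKM in STZ against 2.62, 15.9 and 10.9 RPKM in Con. STZ mice 1 and 2 lay below every Con mouse for both genes and STZ mouse 3 above every Con mouse. The transplant groups were also spread, with Hspa1b at 7.34, 15.4 and 29.95 RPKM in A10-FMT and 4.97, 31.4 and 62.65 RPKM in Con-FMT. Of the 12 inducible members, 11 were highest in mouse 3 within A10-FMT and 10 within Con-FMT, but 11 were highest in mouse 2 within Con and 9 within AOS. Mouse 1 had the lowest Hspa1a in 6 of 6 groups and the lowest Hspa1b in 5 of 6; what the mouse number stands for is not given in the sources used here.

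The same split was seen across cooperating classes. Dnajb1 (HSP40), the inducible J protein that partners with Hspa1a and Hspa1b, was 5.27, 8.28 and 104 RPKM in STZ and 5.39, 15.6 and 11.9 RPKM in Con. Hsph1 (HSP105), an exchange factor, was 4.91, 7.16 and 49.9 RPKM in STZ and 11.8, 21.7 and 16.3 RPKM in Con. Hspb1 (HSP25) was 29.8, 27.6 and 108 RPKM in STZ and 66.6, 65.7 and 70.2 RPKM in Con. Dnaja1 was 42.3, 40.3 and 112 RPKM in STZ and 45.0, 59.9 and 50.9 RPKM in Con. For Hspb1 and Hsph1 too, STZ mice 1 and 2 lay below all 3 Con mice. Hspa8 differed from these: it was 565, 595 and 969 RPKM in STZ and 288, 571 and 446 RPKM in Con, a log2 change of 0.72 ± 0.27 that missed the threshold (limma adjusted p = 0.0581).

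**Figure D4:**
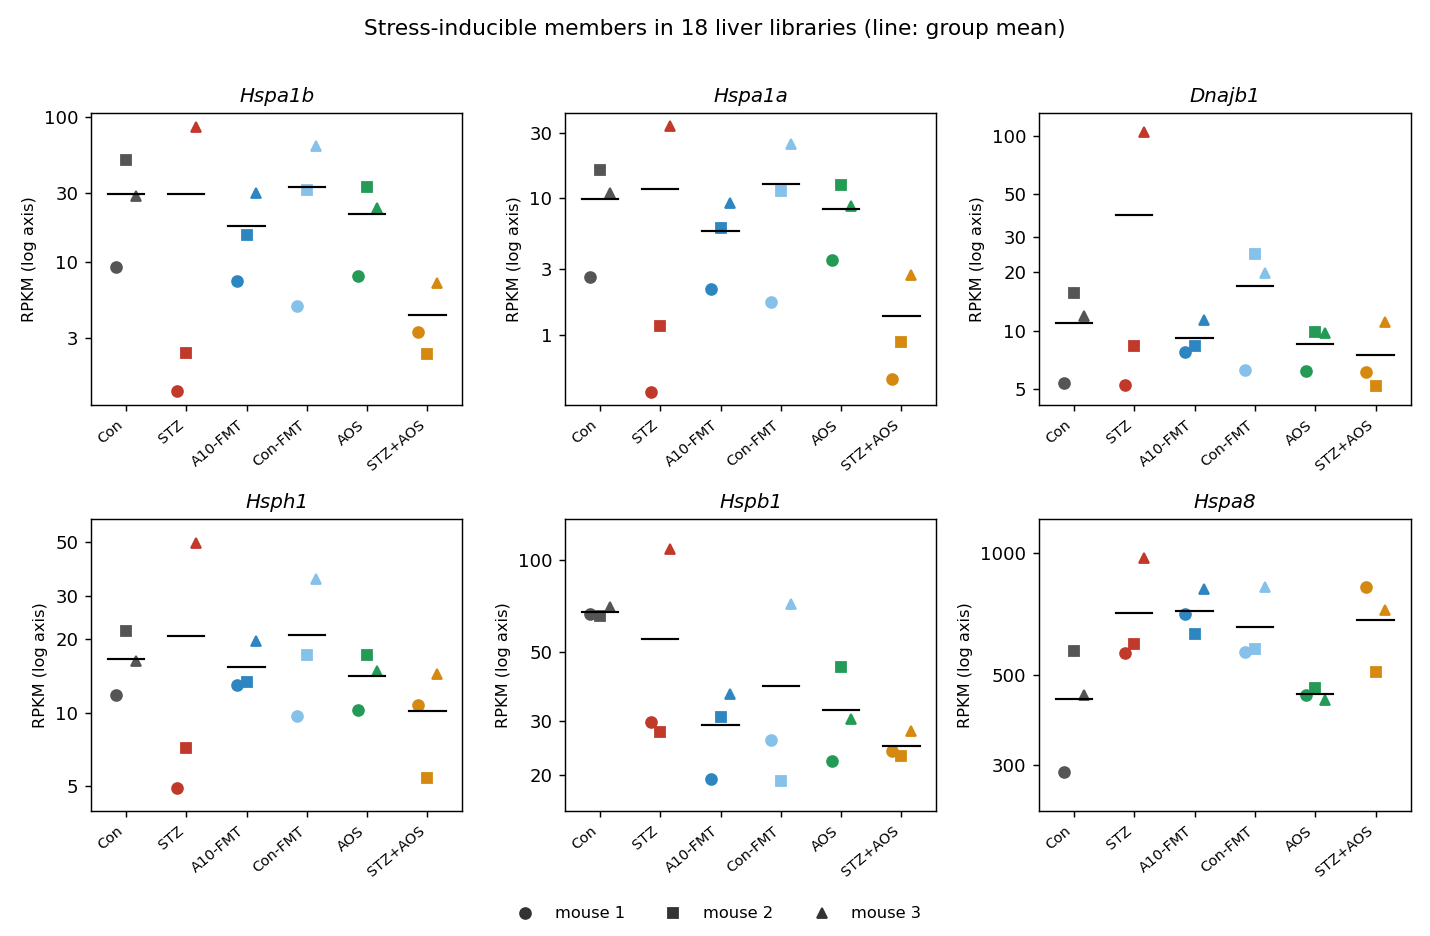
RPKM on a log axis of Hspa1b, Hspa1a, Dnajb1, Hsph1, Hspb1 and Hspa8 in each of the 18 mice, by group (x axis), with the mouse number as the symbol and the group mean as a line. STZ mouse 3 is the highest of all 18 libraries in each of the 6 panels, and STZ mice 1 and 2 are at or near the bottom for Hspa1b (1.28 and 2.35 RPKM) and Hspa1a (0.38 and 1.16 RPKM).

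With all mice, 1 of the 12 inducible members was called in STZ against Con (Hspd1, higher), and Hspa1b had a log2 change of -1.51 ± 1.27 (limma adjusted p = 0.361). Without STZ mouse 3 the count of members called in STZ against Con was 26, 17 higher and 9 lower, beside 47.3% of all genes, 39.7% higher and 7.58% lower. Of the 15 members called with all mice, 13 were among the 26. The 17 higher members included 1 of the inducible list. The 9 lower members included 5 of it: Hspa1b (log2 change -3.17 ± 0.93), Hspa1a (-2.38 ± 0.88), Hsph1 (-1.30 ± 0.42), Hspb1 (-1.20 ± 0.43) and Hspa4l (-0.45 ± 0.14), with limma adjusted p-values of 0.0168, 0.0448, 0.0269, 0.0396 and 0.0211. Dnajb1 was not called even then, at -0.54 ± 0.51. These values rest on leaving out a library whose levels were already known.

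In STZ+AOS all 3 mice had low levels of the HSP70 pair. Hspa1b was 3.29, 2.33 and 7.17 RPKM in STZ+AOS against 8.04, 32.7 and 23.7 RPKM in AOS, with no overlap. Hspa1a was 0.47, 0.89 and 2.74 RPKM against 3.50, 12.5 and 8.81 RPKM, also with no overlap. Neither log2 change was called, at -2.003 ± 1.14 for Hspa1b (limma adjusted p = 0.176) and -1.95 ± 1.03 for Hspa1a (limma adjusted p = 0.146). The model of all 6 groups takes its spread from all libraries, STZ mouse 3 included.

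Other transcripts also differed between the mice of a group or between groups. Cirbp and Rbm3 encode RNA-binding proteins known to be induced by mild cooling. Cirbp was 10.2, 9.02 and 8.41 RPKM in Con, 32.2, 31.8 and 7.68 RPKM in STZ, and 23.1, 22.9 and 25.1 RPKM in STZ+AOS. The 5 libraries with over 20 RPKM of Cirbp had Hspa1b at 1.28 to 7.17 RPKM (median 2.35), and the 13 others had it at 4.97 to 85.2 RPKM (median 28.4). Fos, an immediate early gene, was 98.0 RPKM in STZ mouse 3 and 84.4 RPKM in Con-FMT mouse 2, and at most 7.54 RPKM in the other libraries. Dbp, a clock output gene, was 0.58 to 0.68 RPKM in Con and 88.0, 18.7 and 6.75 RPKM in STZ. It was 0.36 to 3.41 RPKM in AOS, 16.6 to 76.5 RPKM in STZ+AOS, 62.3 to 80.3 RPKM in A10-FMT and 27.3 to 53.9 RPKM in Con-FMT. Every mouse given STZ was thus above every Con and AOS mouse for Dbp. In STZ against Con, 8 of 13 clock genes were called higher and 2 lower. Whether temperature, handling or time of day had a part in the chaperone levels was not tested.

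**Figure D5:**
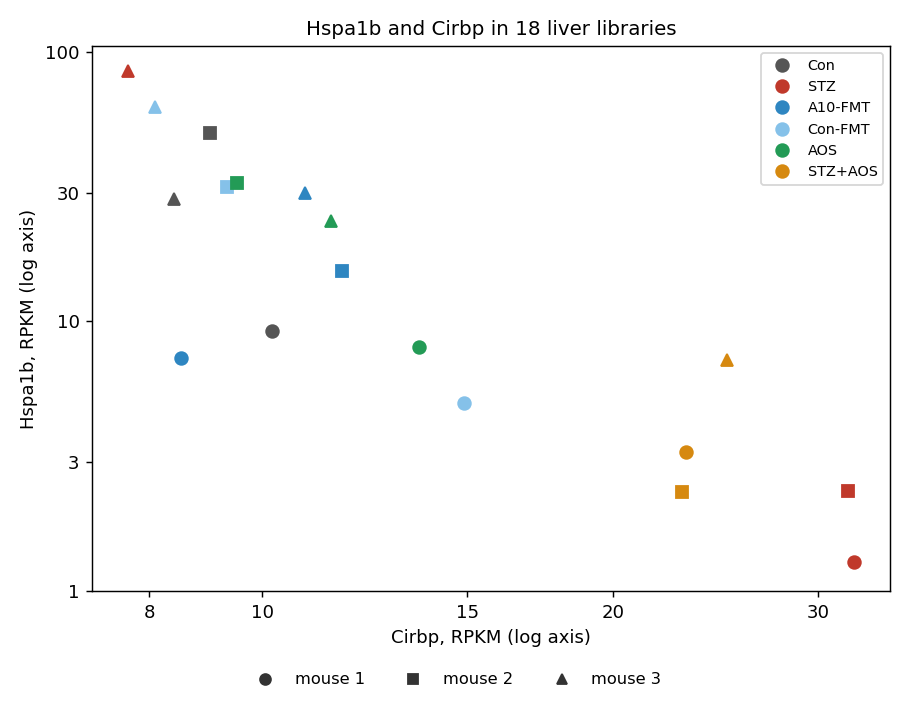
Each symbol is 1 of the 18 libraries, with Cirbp on the x axis and Hspa1b on the y axis, both in RPKM on log axes; colour gives the group and the symbol the mouse number. The 5 libraries with Cirbp over 20 RPKM, STZ mice 1 and 2 and the 3 STZ+AOS mice, have Hspa1b at 1.28 to 7.17 RPKM, and STZ mouse 3, at 7.68 RPKM of Cirbp, has the highest Hspa1b.

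No tested member was called between transplant and STZ mice, or between both kinds of transplant. In A10-FMT against STZ 0 of 53 members were called by limma, beside 0.226% of all genes, and 6 members had an unadjusted p under 0.05, beside 20.9% of all genes. In Con-FMT against STZ 0 were called, beside 0.00943% of all genes, and 3 had an unadjusted p under 0.05, beside 20.1%. In A10-FMT against Con-FMT 0 were called, beside 0% of all genes, and 0 had an unadjusted p under 0.05, beside 2.86%. The smallest adjusted p of a member by limma was 0.0878, 0.19 and 0.999 in these comparisons, and limma without a trend in the spread called 0 as well.

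The mean levels of the mitochondrial pair lay between those of Con and STZ after either transplant. The pair had been called in STZ against Con, which uses the same Con and STZ mice. Means in between are therefore not a test of recovery. Hspa9 was 204, 202 and 226 RPKM in A10-FMT and 262, 190 and 213 RPKM in Con-FMT. All A10-FMT mice were below the STZ mice, which reached down to 231 RPKM, while Con-FMT and STZ overlapped. Such a lower A10-FMT group without overlap was found for 7 of 53 members, beside 13.9% of all genes. The log2 change against STZ was -0.37 ± 0.15 for A10-FMT (limma adjusted p = 0.208) and -0.30 ± 0.15 for Con-FMT (adjusted p = 0.29). Dnaja3 was 41.0, 39.4 and 45.2 RPKM in A10-FMT and 56.1, 42.8 and 47.5 RPKM in Con-FMT. Against STZ its log2 changes were -0.41 ± 0.12 (limma adjusted p = 0.114) and -0.20 ± 0.12 (adjusted p = 0.377). Hspa14, an HSP70 of the ribosome-associated complex, had the smallest adjusted p of any member in A10-FMT against STZ, 0.0878 by limma, with 9.20, 9.57 and 9.28 RPKM against 7.01, 6.73 and 7.76 RPKM in STZ.

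Against Con, which both transplant comparisons share with STZ against Con, part of the STZ pattern was present. In A10-FMT against Con 5 members were called, 3 higher and 2 lower, beside 18.4% of all genes (15.9% higher, 2.47% lower). They were Hspa9 at 0.67 ± 0.15, Dnaja2 at 0.31 ± 0.08 and Hspa2 at 0.68 ± 0.21, higher, and Dnaja4 at -0.95 ± 0.16 and Dnajb5 at -0.37 ± 0.10, lower. In Con-FMT against Con 8 were called, 6 higher and 2 lower, beside 19.4% of all genes (17.5% higher, 1.89% lower). Those were Dnajb9 at 0.91 ± 0.25, Hspa9 at 0.73 ± 0.15, Hspb8 at 0.72 ± 0.18, Dnajc7 at 0.40 ± 0.11, Dnaja3 at 0.40 ± 0.12 and Dnajc16 at 0.30 ± 0.10, higher, and Dnaja4 at -0.63 ± 0.16 and Dnajb5 at -0.38 ± 0.10, lower. Dnajb9 (ERdj4), a target of the unfolded protein response, was 37.5, 51.9 and 58.3 RPKM in Con-FMT, 36.5, 46.0 and 41.6 RPKM in A10-FMT and 28.1, 23.0 and 25.1 RPKM in Con. With median-ratio scaling the counts were 6 members in A10-FMT against Con, 1 higher and 5 lower, and 4 in Con-FMT against Con, 1 higher and 3 lower, beside 11% (6.05% higher, 4.93% lower) and 8.24% (4.6% higher, 3.64% lower) of all genes. The count of 5 was 1 without Con mouse 1, Con mouse 3 or A10-FMT mouse 3 and 2 without A10-FMT mouse 2. The count of 8 was 1 without Con mouse 1 or 3, 2 without Con-FMT mouse 1 and 3 without Con mouse 2 or Con-FMT mouse 3.

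Dnaja4 stayed low after either transplant, at 1.32, 1.27 and 1.43 RPKM in A10-FMT and 1.56, 1.99 and 2.24 RPKM in Con-FMT, and no transplant mouse reached a Con mouse. Hspb1 was 19.5, 30.9 and 36.6 RPKM in A10-FMT and 26.1, 19.1 and 71.5 RPKM in Con-FMT, and its change was not called against Con or STZ. STZ mouse 3 was also left out here, with its levels already known. Without it A10-FMT against STZ gave 4 members, all higher (Hspa14, Hspb8, Dnaja1 and Dnajb9). Beside them 12.7% of all genes were called, 3.78% higher and 8.92% lower. Without that mouse Con-FMT against STZ gave 6 members beside 15.5% of all genes (5.62% higher, 9.85% lower). They were Hspa1b, Hsph1, Dnajb9, Hspb8 and Dnaja1, higher by 3.06, 1.47, 0.88, 0.68 and 0.67, and Hspa2, with a log2 change of -0.73, lower.

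No member was called with AOS alone or with AOS added to STZ, in either case also by limma without a trend. In AOS against Con 0 of 53 were called by limma, beside 0.00924% of all genes, and 4 had an unadjusted p under 0.05, beside 7.22%. These 4 were Dnajc7, Dnajc12, Dnajc11 and Hspb1, with limma adjusted p-values of 0.627 to 0.666. Hspb1 was 22.2, 44.7 and 30.4 RPKM in AOS, below all 3 Con mice, and its log2 change was -1.09 ± 0.48. In STZ+AOS against STZ 0 of 53 were called, beside 0% of all genes, and 5 had an unadjusted p under 0.05, beside 6.07%, all with an adjusted p of 0.806.

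Cytosolic HSP90 receives clients from HSP70, and of its 2 genes Hsp90aa1 followed the inducible members. Hsp90aa1 was 119, 181 and 148 RPKM in Con and 45.1, 60.2 and 226 RPKM in STZ, and was not called. Hsp90ab1 was 330, 461 and 383 RPKM in Con and 340, 334 and 555 RPKM in STZ. Its STZ mice 1 and 2 lay within the Con range, and its log2 change was 0.04 ± 0.20. All changes and calls in this paragraph are unscaled. Of the 8 subunits of the cytosolic chaperonin CCT, which folds actin and tubulin, 4 were called higher in STZ against Con and 8 in STZ+AOS against AOS, with medians of 0.30 and 0.43 against 0.21 for all genes. Of 25 tested cochaperones 7 were called higher in STZ against Con and 11 in STZ+AOS against AOS, and none lower, beside 33% and 31.8% of all genes called higher. Bag1 and Bag4, exchange factors of HSP70, rose by 0.73 and 1.07 in STZ against Con, and Fkbp5, a cochaperone of HSP90 that glucocorticoids induce, rose by 1.86 and in STZ+AOS against AOS by 1.91. Of 6 prefoldin subunits 1, Vbp1, was called higher in each comparison. Of the 4 tested genes on the list of heat shock factors and their binding protein none was called in STZ against Con, 1 was called higher in STZ+AOS against AOS (Hsf4, by 0.37), and Hsbp1, which binds HSF1, was called higher in A10-FMT and Con-FMT against Con, by 0.39 and 0.34. Hsf1 itself had a log2 change of 0.01 ± 0.10 in STZ against Con. Bag3, which HSF1 induces and which binds Hspb8, was 10.7, 18.7 and 16.2 RPKM in Con and 4.94, 8.16 and 34.8 RPKM in STZ, in the order seen for Hspa1b.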

How the data were processed

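RNA of mouse liver was sequenced on an Illumina HiSeq. The authors aligned reads to the mouse genome (mm10) and deposited RPKM values, 1 column per library; the study's methods name SOAPaligner and the submitters' processing notes Bowtie 0.12.2. No other columns were present. Depth is unknown. Steps between low RPKM values put the relative depth of the 18 libraries within 0.956 to 1.04, an indirect estimate from 6 genes. No libraries were identical.

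Values were tested as log2(RPKM + 1) with limma 3.58.1 in R 4.3.3 (empirical Bayes with a trend in the spread, two-sided, Benjamini-Hochberg over all tested genes, called at an adjusted p under 0.05), among genes that reached 1 RPKM in 3 or more libraries of the fit. Each fold is thus on the log2(RPKM + 1) scale and understates changes of low genes. Comparisons within Con, STZ, A10-FMT and Con-FMT used those 12 libraries, the study's own design, and the others all 18. The fit was tested on simulated data. Same-numbered A10-FMT and Con-FMT mice deviated together (correlations of 0.121, 0.291 and 0.179), and no other pairing of groups had all 3 correlations over 0.1. Nothing says that the mice of a group were housed apart, and p-values measure the spread between these mice.

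Members and lists were chosen with earlier results of these data known. Named were the stress-inducible members, the 5 with the highest mean, members called with at least a 2-fold change and, per comparison, up to 6 called members in each direction with the smallest adjusted p. Dnajc15, Dnajc19, Dnajc22 and Hspa14 were named after their values were seen. RefSeq promoters (GRCm38.p6) were found for 55 of the 67 members; coordinates count from 1. Stretches of 35 bases were compared between transcripts of GENCODE. The alternatives were other scalings, filters, a pseudocount of 0.1, limma without trend, other sets of libraries, a block for the mouse number and leaving out each mouse.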

Additional observations from a re-analysis of the deposited data

How the results depend on the processing

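In STZ against Con the calls of Hspa9, Dnaja3, Dnaja4 and Dnajb5, and in STZ+AOS against AOS those of Hspa9, Dnaja3, Dnaja4, Dnajc2 and Dnajc12, were kept under every alternative and with each mouse left out. Dnajb11 lost its call in STZ against Con with no filter and in a fit of only the compared groups (adjusted p = 0.0634 and 0.0716). Of each comparison's calls, those with the smallest adjusted p, at most 6 in each direction, were followed gene by gene, and none changed direction under an alternative; the other called members were counted only. The comparisons of A10-FMT with Con-FMT, of AOS with Con, of STZ+AOS with STZ and the difference between the STZ effects had 0 members called under every alternative.

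In STZ against Con 15 members were called, 9 with quantile normalization (2 higher, 7 lower), 6 with only the compared groups, and 8 to 26 with a mouse left out; 4087 genes were called in all, 2667 with only the compared groups. In A10-FMT against STZ and Con-FMT against STZ 0 were called, and 0 to 4 and 0 to 6 with a mouse left out, above 0 only without STZ mouse 3. In A10-FMT against Con 5 were called, 17 with only the compared groups and 1 to 4 with a mouse left out; 1953 genes were called in all and 3387 with only the compared groups. In Con-FMT against Con 8 were called, 4 with quantile normalization, median centring, median-ratio scaling or no filter, and 1 to 9 with a mouse left out. In STZ+AOS against AOS 18 were called, 10 with quantile normalization (5 higher, 5 lower), 9 with median centring or median-ratio scaling (4 higher, 5 lower each), and 11 to 20 with a mouse left out. The cause of these differences was not tested.

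Groups share mouse numbers, but 16 of 45 pairs of same-numbered mice had deviations correlated above 0.1 (range -0.249 to 0.472), and all 3 pairs did in 1 of the 15 pairings of groups, A10-FMT with Con-FMT. Every mouse correlated best with its own number in 2 of the 15, that one and Con with A10-FMT. In A10-FMT against Con-FMT the replicate block also called 0 members; elsewhere the mice were taken to share only a number. With that number as a replicate block, 3 members were called in A10-FMT against Con, 5 in Con-FMT against Con, 15 in STZ against Con and 18 in STZ+AOS against AOS (16 higher, 2 lower).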
